A study of Mus musculus with 43 samples.

Results

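Skeletal muscle of mice labelled KO_AL was compared directly with that of mice labelled WT_DR. These are the long-lived mutant and the long-lived diet group of the study, and the question was where their muscle transcriptomes part. The comparison takes 6 of the 43 libraries of the series, 3 from each group, and every entry of the expression table that was measured in both. KO_AL mice were female Irs1-/- mice, which carry the deletion in all tissues and not in muscle alone, and they ate standard chow ad libitum (AL). WT_DR mice were female Irs1+/+ mice under dietary restriction (DR), brought in steps from 10 weeks of age to 30% less food and kept there for 12 months. They received their food once a day in the late afternoon. Both groups were 15 months old at tissue collection and were housed with their own sex. Genotype and diet differ together between the groups and cannot be told apart in this comparison, so the values of WT_AL (2 libraries) and KO_DR (3 libraries) are printed beside them as a description. Which muscle was taken is not given in the sources used here. The deposited table gives 1 pooled value per group in FPKM (fragments per kilobase of transcript and of mapped fragments, scaled between libraries) with a 95% interval and no value per library, so no spread between mice was computed and the depth is unknown.

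IRS1 is an adaptor protein that couples the insulin and insulin-like growth factor receptors to phosphoinositide 3-kinase and AKT. In muscle this pathway drives glucose uptake, glycogen storage and protein synthesis, and it keeps FOXO transcription factors out of the nucleus. Muscle shifts between glucose and fat as fuel with the time since the last meal, and DR places the daily meal at a fixed hour. Slow, oxidative fibres and fast, glycolytic fibres use different sets of contractile and metabolic genes, so the mixture of fibres in a piece of muscle also sets its transcriptome. In such bulk tissue fewer cells of a type and less RNA per cell cannot be told apart.

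Irs1, the deleted gene, was read first as a check of the labels. Its FPKM was 5.72 in WT_AL, 6.31 in KO_AL (interval 4.30 to 8.31), 5.48 in WT_DR (interval 4.09 to 6.88) and 5.82 in KO_DR. The group labelled KO_AL was thus no lower than the others, with a log2 difference from WT_DR of 0.20 (SE 0.29, not called). This goes against the label KO_AL as far as the transcript is concerned, and all directions here are those of the labelled groups. Irs1 lies at chr1:82233101-82291416 on the minus strand of GRCm38, and its exon 1 (82286777 to 82291416) holds the whole coding sequence. Where the deletion lies in the gene is not given in the sources used here, and 1 value per gene cannot show whether reads came from exon 1 or exon 2.

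Muscle markers were present in every group. None of 13 muscle genes, among them skeletal actin Acta1 and the muscle creatine kinase Ckm, was listed at 0 in any group, and their summed FPKM was 66370 in WT_AL, 69240 in KO_AL, 94690 in WT_DR and 92480 in KO_DR. Between 13441 and 13683 entries per group reached 1 FPKM, and the median SD behind a value, as the authors' interval gives it, was between 33.8% and 40.9% of the FPKM. Differences below are log2 ratios of KO_AL over WT_DR, positive where KO_AL was higher. They were tested with a two-sided Wald test whose standard error (SE) comes from the authors' intervals, and called at a false discovery rate (FDR) of 10% over all entries tested. Single p-values are not printed, because a normal approximation on pooled values from 3 libraries a group cannot give exact ones.

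Of 42349 entries, 14137 could be tested. A total of 267 were called, which is 1.89% of those tested, with 140 higher in KO_AL (0.99%) and 127 lower (0.898%). Of the 127, 88 followed the liver transcriptome and are set apart below, and the remaining 39 make up 0.276% of the entries tested. By the same rule 1258 of the 6980 tested entries lower in KO_AL, called or not, followed liver. Over all entries tested the median log2 difference was 0.0073, with 7157 entries above 0 and 6980 below. The median SE was 0.76, which is wide, since 1 unit on this scale is a doubling. Of the 140 higher entries, 33 belonged to the lists of blood, immune, fat or nerve genes, 23 were loci shorter than 300 bases, and 8 joined several overlapping genes. Of the 39 lower entries, 12 were short loci and 2 were joined. Some of the lists, of neutrophil, platelet, immunoglobulin and cell division genes, were drawn up after the values were seen. The shares of these lists, of short loci and of joined entries over all entries tested were not counted, so these counts are a description. The 3 libraries per group make the reference distribution matter: with a t distribution of 4 degrees of freedom in place of the normal one, 3 entries were called higher and 3 lower. Dividing each SD by the square root of the number of libraries gave the smaller SE referred to below, under which 644 entries (4.56%) were called higher and 491 (3.47%) lower.

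**Figure D1:**
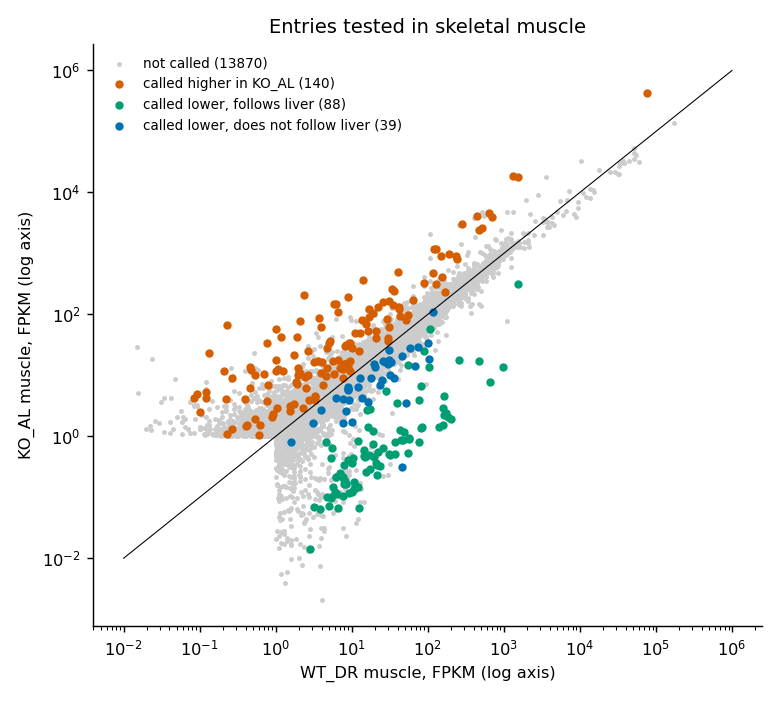
FPKM in WT_DR muscle (x axis, log scale) against FPKM in KO_AL muscle (y axis, log scale) for the 14137 entries tested, each point 1 entry, with entries called higher in KO_AL, called lower, and called lower while following the liver values in separate colours. Most of the 88 liver-following entries lie further below the diagonal than the other 39 lower entries.

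The genes lower in KO_AL were led by genes that the liver makes. Apoa1, which encodes the main protein of high-density lipoprotein, was at 3.66 FPKM in WT_AL, 7.75 in KO_AL (interval 2.99 to 12.5), 653 in WT_DR (interval 430 to 876) and 27.3 in KO_DR. Muscle of WT_DR thus stood alone, and KO_AL was 84.3-fold lower than WT_DR (log2 difference -6.40, SE 0.51, called). Albumin (Alb) stood at 13.6 FPKM in KO_AL and 987 in WT_DR (log2 difference -6.18, called), and the thyroxine carrier Ttr at 3.88 and 76.4 (log2 difference -4.30, called). All 24 genes of the liver list were lower in KO_AL, 21 of them called, with a median log2 difference of -5.92 and summed FPKM of 72.6 in WT_AL, 188 in KO_AL, 3779 in WT_DR and 331 in KO_DR. Cyp2e1, a cytochrome P450, was the member nearest to 0, at 95.4 FPKM in KO_AL and 102 in WT_DR.

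The excess of these genes in WT_DR muscle was in proportion to their level in WT_DR liver. Over the 24 genes the excess was a median of 1.79% of the liver FPKM, with quartiles of 1.45% and 2.35% and a range of 0.116% to 3.02%. An entry lower in KO_AL was said to follow liver where this share of its liver value covered at least 50% of its difference, a limit that rests on these values and is given without a test. Just inside the limit were Azgp1 (52.7%), Apom (54.2%) and Igfbp2 (56.2%), and just outside were Serpina1e (48.0%), Snord118 (37.8%) and BC005537 (14.9%). The limit itself bounds in part how far an entry can depart from this share. In the 88 called entries that followed liver, the WT_DR muscle value was between 0.715% and 6.08% of the liver value. By size of the log2 difference they were led by Cps1 (-7.61), Apom, Serpina1c, Azgp1, Serpinc1 (-6.67) and Cfi (-6.67). WT_AL stood nearer to KO_AL than to WT_DR for all 88 and KO_DR for 87. The 88 were picked for their KO_AL and WT_DR values. The share over all entries tested was not counted, so these counts are a description. The part of liver RNA in any single result was not tested. Among the 88 is Apoe, a lipoprotein that other cells make as well, at 317 FPKM in KO_AL and 1514 in WT_DR.

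**Figure D2:**
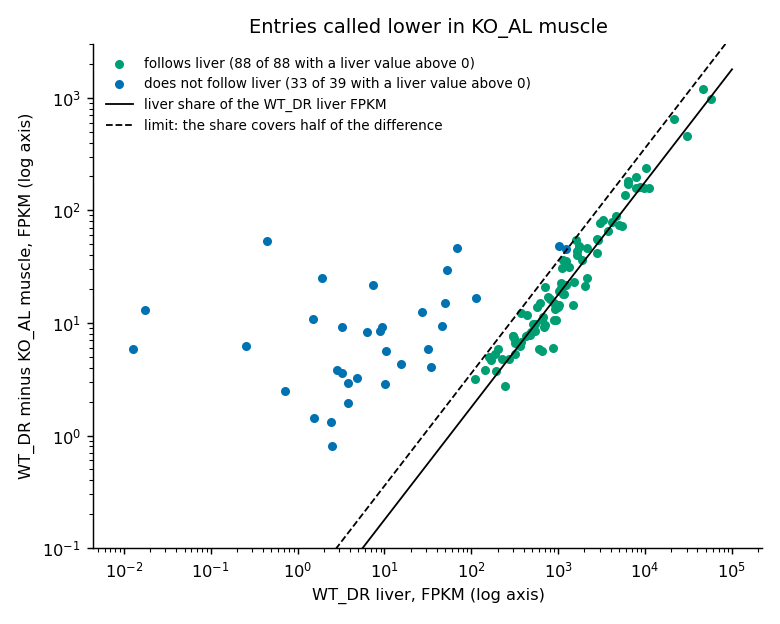
WT_DR liver FPKM (x axis, log scale) against the WT_DR minus KO_AL difference in muscle FPKM (y axis, log scale) for the entries called lower in KO_AL that have a liver value above 0, 88 of 88 that follow liver and 33 of 39 that do not, with a solid line at 1.79% of the liver value and a dashed line at the 50% limit. By the definition of the limit, entries that follow liver lie at most 2-fold above the solid line or below it. The others lie further above.

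The next most distinct set, in the other direction, was of blood and marrow genes. The neutrophil alarmins S100a8 and S100a9 reached 148 and 364 FPKM in KO_AL muscle, while S100a8 was at 0.70 in WT_AL, 5.79 in WT_DR and 8.32 in KO_DR, and S100a9 at 3.13, 13.9 and 17.3. Only KO_AL was high, with log2 differences of 4.68 (SE 1.21, called) for S100a8 and 4.71 (SE 0.83, called) for S100a9. The granule genes Ngp (42.1 FPKM in KO_AL, 1.16 in WT_DR) and Lcn2 (87.5 and 3.65) were called higher as well. On a list of 18 neutrophil genes drawn up after these values were seen, 16 could be tested, 16 were higher in KO_AL and 10 were called. The other 2, the early granule genes Mpo and Elane, were at 17.5 and 6.62 FPKM in KO_AL and listed at 0 in WT_DR. The summed FPKM of this list was 10.6 in WT_AL, 803 in KO_AL, 29.1 in WT_DR and 41.9 in KO_DR. Proliferation marker Mki67 (5.27 FPKM in KO_AL, 0.12 in WT_DR, log2 difference 5.44) and the erythroid factor Klf1 (4.10 and 0.39), both also chosen after their values were seen, were called higher.

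Globin transcripts had a different pattern over the 4 groups. Hbb-bs, a beta globin of the adult red cell, was at 394 FPKM in WT_AL, 2631 in KO_AL (interval 390 to 4872), 516 in WT_DR (interval 295 to 737) and 3247 in KO_DR. Both KO groups were high and both WT groups low, and the log2 difference of 2.35 (SE 0.69) was called. Hbb-bt and Hba-a2 were called too, at 2.36 and 3.22, whereas the neighbouring alpha globin copy Hba-a1 had a value of 3.24 with an SE of 1.15 and was not. Hba-a1 and Hba-a2 are near-identical copies that share reads, so their separate values are uncertain. On the red cell list 8 of 10 tested genes were higher in KO_AL and 4 were called. Antibody transcripts were also higher: Igkc, the kappa light chain constant region, was at 433 FPKM in WT_AL, 905 in KO_AL, 147 in WT_DR and 311 in KO_DR (log2 difference 2.62, SE 0.66, called). The variable segment Igkv3-2 (log2 difference 4.55) and the IgG chain Ighg2b (4.14) were among the 12 largest called higher values of single-gene entries with at least 1 FPKM in both groups. In all, 84 of the 316 immunoglobulin entries in the table could be tested, and 75 were higher in KO_AL, 10 of them called. Variable segments resemble each other, and reads may be split between them. Of the 10 B cell, 16 macrophage and 6 MHC class II genes tested, Igkc alone passed the Wald test, against 2, 2 and 0 with the smaller SE. The platelet glycoprotein Gp5 and the chemokine Ppbp were the 2 calls among 6 platelet genes tested, all 6 higher in KO_AL, from a list also made after the values were seen.

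Fat and nerve genes formed a further group. Ucp1, the uncoupling protein that gives brown fat its heat, was at 0.090 FPKM in WT_AL, 66.9 in KO_AL (interval 15.8 to 118), 0.23 in WT_DR (interval 0 to 0.69) and 2.05 in KO_DR. The difference was 290-fold (log2 difference 8.18, SE 1.53, called). Because the WT_DR interval reaches 0, the size of this ratio is uncertain. Cidea, a lipid droplet protein of brown and white adipocytes, was at 2.16, 79.1, 2.07 and 22.8 FPKM in the same order, with a log2 difference of 5.26 (called). The elongase Elovl3 was the third of 5 tested brown fat genes called (log2 difference 2.29), while Cox7a1 and Cox8b, which muscle expresses as well, were not. All 17 tested genes of the adipocyte list were higher in KO_AL, with a median log2 difference of 1.56, but only Plin1, the complement protease Cfd (918 FPKM in KO_AL, 233 in WT_DR) and resistin (Retn, 30.9 and 9.18) were called. Plin1, which coats the lipid droplet of fat cells, was at 57.7 FPKM in WT_AL, 91.0 in KO_AL, 17.0 in WT_DR and 134 in KO_DR. Here WT_DR was the low group, as for adiponectin (Adipoq: 321, 198, 62.9 and 326 FPKM, not called). Nerve genes followed: 8 of 8 tested nerve genes were higher in KO_AL, at a median log2 difference of 1.73, and none was called (5 with the smaller SE), with Mbp, which encodes myelin basic protein, lowest in WT_DR at 36.5, 25.4, 6.46 and 74.7 FPKM in WT_AL, KO_AL, WT_DR and KO_DR. These values stand beside every muscle result below, and their part in those results was not tested.

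**Figure D3:**
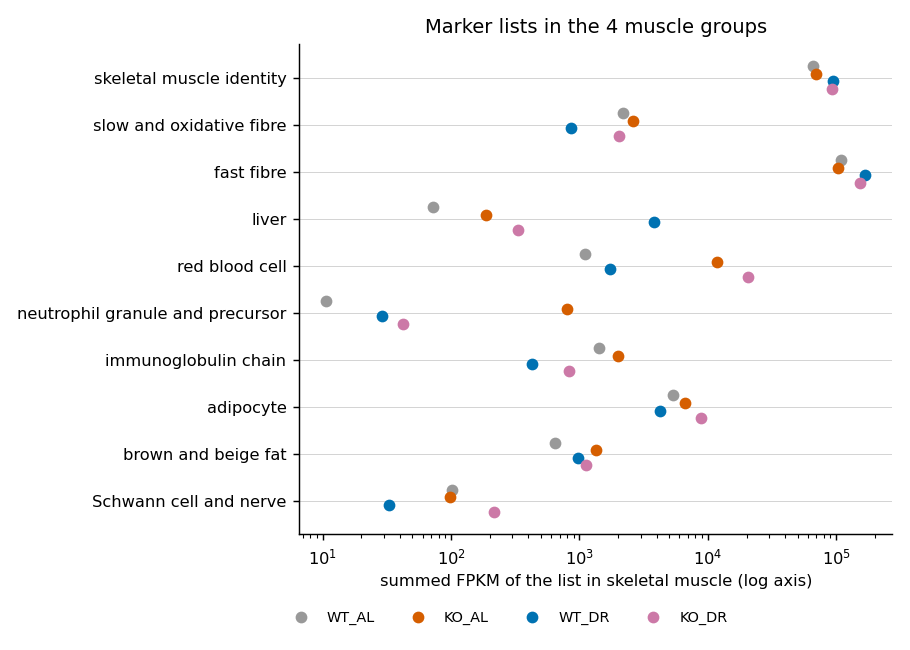
Summed FPKM (log scale) of 10 lists of marker genes in muscle of WT_AL, KO_AL, WT_DR and KO_DR, each point 1 group's pooled value. The liver list is high in WT_DR alone (3779), the neutrophil list in KO_AL alone (803), the red cell list in both KO groups, and the slow fibre list is lowest in WT_DR (861).

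Among contractile genes, all 14 slow and oxidative ones had higher values in KO_AL, and 2 of them were called. Ankrd2, an ankyrin repeat protein of the sarcomere that responds to stretch, was at 169 FPKM in WT_AL, 131 in KO_AL (interval 74.6 to 188), 22.3 in WT_DR (interval 7.41 to 37.1) and 66.8 in KO_DR. It was 5.90-fold higher in KO_AL than in WT_DR (log2 difference 2.56, SE 0.57, called). Csrp3, the muscle LIM protein of the Z-disc, stood at 158, 163, 31.1 and 61.0 FPKM (log2 difference 2.39, SE 0.58, called). In both genes WT_DR was the lowest of the 4 groups, and the intervals of KO_AL and WT_DR did not overlap. The slow myosin heavy chain Myh7 was at 123 FPKM in WT_AL, 84.8 in KO_AL, 32.6 in WT_DR and 83.6 in KO_DR, a log2 difference of 1.38 that did not pass the test. Ventricular and slow light chains Myl2 (1.73) and Myl3 (2.19), the Z-disc protein Myoz2 (1.91), leiomodin Lmod2 (1.23) and the fast oxidative myosin Myh2 (1.12) did not pass it either. All 14 genes of the list were higher in KO_AL, from 1.12 to 2.56 with a median of 1.67 against 0.0073 over all entries. Ankrd2 and Csrp3 were the 2 called (0.99% of all entries were called higher), and 12 were called with the smaller SE. WT_DR was below WT_AL and below KO_DR for 14 of 14, so that it was the lowest group throughout. WT_AL was above KO_AL for 5 of the 14 genes and KO_DR was above KO_AL for 1. The summed FPKM was 2173 in WT_AL, 2592 in KO_AL, 861 in WT_DR and 2032 in KO_DR.

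Fast fibre genes lay on the other side of 0 with smaller differences. Of 13 fast genes 12 were lower in KO_AL and none was called by the Wald test, with either SE, at a median log2 difference of -0.51. The fastest myosin heavy chain, Myh4, was at 8353 FPKM in WT_AL, 5576 in KO_AL, 9542 in WT_DR and 7653 in KO_DR (log2 difference -0.77). Myl1, an essential light chain of fast myosin, was at 5912, 3875, 8864 and 6606 FPKM (-1.19), and Myh1, the other fast heavy chain, was the exception at 0.58. Of the calcium handling genes 10 of 16 were lower in KO_AL and none was called, while the slow calcium pump Atp2a2, calsequestrin 2 (Casq2) and sarcolipin (Sln, 31.8 FPKM in KO_AL and 7.94 in WT_DR) were called higher with the smaller SE and the junctophilin Jph1 lower. Atp2a1, Casq1 and Pvalb of this list are also on the fast list and Atp2a2 and Casq2 on the slow list, so the lists share values.

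**Figure D4:**
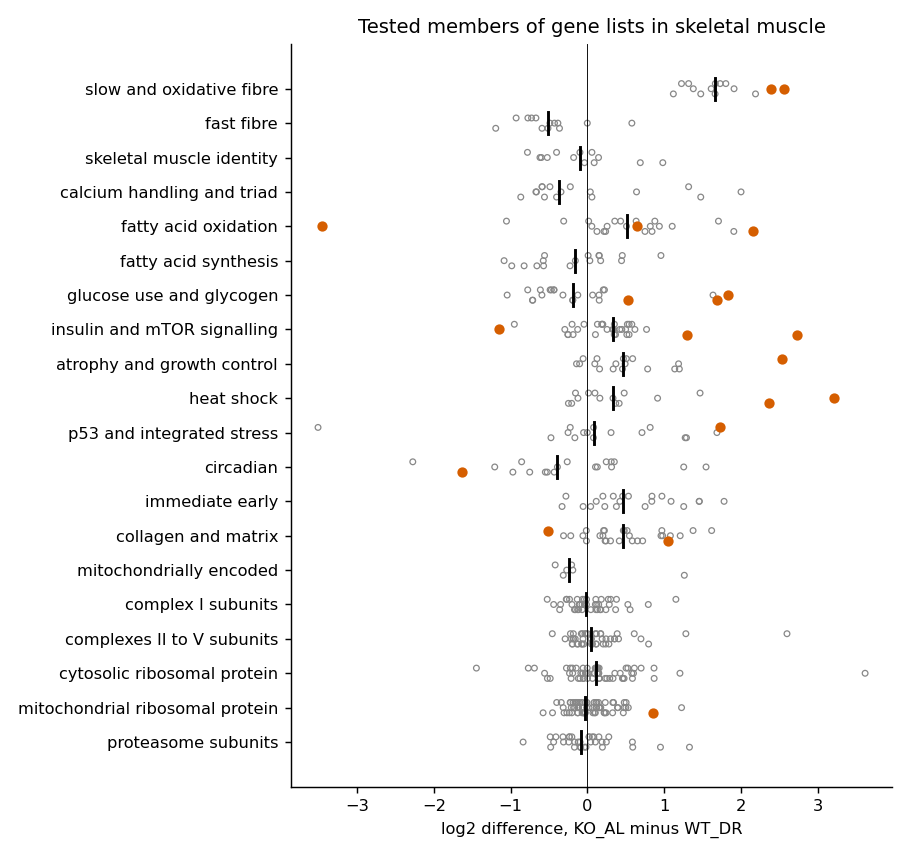
Log2 difference, KO_AL minus WT_DR (x axis), of each tested member of 20 gene lists (rows), with filled points for members called at an FDR of 10% and a bar at each median. All 14 slow fibre genes lie to the right of 0 with a median of 1.67, 12 of 13 fast fibre genes lie to the left, and the ribosomal protein and respiratory chain lists are centred near 0.

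Genes of fat use were mostly higher in KO_AL. Plin5, which tethers lipid droplets to mitochondria in oxidative tissue, was at 30.7 FPKM in WT_AL, 68.1 in KO_AL (interval 36.0 to 100.2), 15.2 in WT_DR (interval 7.28 to 23.1) and 25.9 in KO_DR. KO_AL stood above the other 3 groups, 4.48-fold above WT_DR (log2 difference 2.17, SE 0.51, called). Cd36, the fatty acid transporter at the cell surface, was at 86.2, 79.3, 50.8 and 52.8 FPKM, a smaller but tighter difference (log2 0.64, SE 0.17, called) in which the AL groups were the high ones. Of 23 fatty acid oxidation genes tested, 20 were higher and 3 lower in KO_AL, at a median of 0.51. The 2 called higher were Plin5 and Cd36, 1 member was called lower, and 7 were called higher with the smaller SE. Lipoprotein lipase Lpl was at 289 FPKM in KO_AL and 88.4 in WT_DR (log2 difference 1.71, SE 0.58, not called). Its inhibitor Angptl4 was at 49.8 and 13.3 FPKM (1.91, SE 0.66, not called). Pdk4, the kinase that inhibits pyruvate dehydrogenase in fasting, was at 1526 FPKM in WT_AL, 1043 in KO_AL, 335 in WT_DR and 248 in KO_DR. It was lower in both DR groups and not called (log2 difference 1.64). Adipocytes express Plin5, Cd36 and Lpl too, and the 3 called adipocyte genes above were higher in the same group.

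Further genes of mitochondrial fuel handling were called, and these were chosen after their values were seen. Acot2, a mitochondrial acyl-CoA thioesterase, was at 54.1 FPKM in WT_AL, 53.3 in KO_AL, 20.7 in WT_DR and 20.6 in KO_DR. It was high in both AL groups and low in both DR groups (log2 difference 1.37, SE 0.30, called). Lpin1, a phosphatidate phosphatase that also acts as a transcriptional coactivator, was at 89.5, 93.4, 42.6 and 76.0 FPKM (1.13, called). The mitochondrial carrier Slc25a34 was at 23.8, 49.5, 10.9 and 24.8 FPKM (2.18, called), highest in KO_AL and lowest in WT_DR.

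Of the glucose genes 3 were called, all higher in KO_AL. Pdp2, the phosphatase that switches pyruvate dehydrogenase on, was at 2.03 FPKM in WT_AL, 3.91 in KO_AL (interval 3.44 to 4.37), 2.70 in WT_DR (interval 2.57 to 2.83) and 2.23 in KO_DR. Its narrow intervals made a log2 difference of 0.53 (SE 0.092) one of the called ones. Ldhb, the lactate dehydrogenase subunit of heart and oxidative fibres, was at 218, 322, 89.8 and 206 FPKM (1.84, called). Ppp1r3c, which brings protein phosphatase 1 to glycogen, was at 150, 134, 41.5 and 106 FPKM (1.69, called). In Ldhb and Ppp1r3c WT_DR was the low group again, and both calls were lost with no FPKM minimum. Of the 24 genes on the list 10 were higher and 14 lower, with a median of -0.19. Lipogenic genes gave no call by the Wald test: 8 of 17 were higher and 9 lower (median -0.16), and the smaller SE called only Dgat2 higher and Elovl6 lower. Elovl6, the elongase of long saturated fatty acids, was at 1.76 FPKM in WT_AL, 5.44 in KO_AL, 11.5 in WT_DR and 18.3 in KO_DR (log2 difference -1.09, SE 0.37, not called). Fatty acid synthase Fasn stood at 35.2, 175.5, 172 and 497 FPKM, with KO_AL and WT_DR next to each other (log2 difference 0.03, not called) and both above WT_AL. Thrsp, a lipogenic nuclear protein, had the same order (15.4, 66.2, 59.7 and 124 FPKM).

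Downstream of IRS1, the transcription factor Foxo1 differed between the groups. It was at 4.60 FPKM in WT_AL, 6.15 in KO_AL (interval 4.61 to 7.68), 2.50 in WT_DR (interval 1.87 to 3.13) and 4.28 in KO_DR, with the highest value in KO_AL and the lowest in WT_DR. The log2 difference of 1.30 had an SE of 0.26 and was called. Ddit4, an inhibitor of the growth kinase complex mTORC1 that is raised by stress, was at 24.0, 33.3, 5.01 and 26.8 FPKM (2.73, SE 0.66, called), so that WT_DR stood apart from the other 3. Igfbp5, a secreted binding protein of insulin-like growth factors, went the other way at 30.3, 20.5, 45.7 and 42.6 FPKM (-1.16, SE 0.29, called), lower in the AL groups. On the insulin and mTOR list 23 of 32 genes were higher in KO_AL and 9 lower, at a median of 0.34, and these 3 were the ones called. The receptor Insr (10.7 FPKM in KO_AL, 8.52 in WT_DR), the second substrate Irs2 (12.0 and 8.23) and the kinase Akt2 (98.6 and 77.3) were not called. Igf1, the growth factor itself, was at 8.67, 8.54, 16.5 and 16.03 FPKM, and was not called (-0.95). Subtracting the liver share turned its difference to 1.07. KO_DR had an Igf1 value like that of WT_DR, with a summed liver list of 331 FPKM against 3779 in WT_DR. The part of liver RNA in the Igf1 values was not tested.

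Genes of stress and growth arrest added a few large differences. Cdkn1a, which encodes the cell cycle inhibitor p21, was at 16.7 FPKM in WT_AL, 54.1 in KO_AL (interval 37.7 to 70.4), 16.4 in WT_DR (interval 13.1 to 19.6) and 50.4 in KO_DR. Both KO groups were high and both WT groups low. KO_AL was 3.30-fold above WT_DR (log2 difference 1.72, SE 0.26, called). It was the only call among 16 tested genes of the p53 and integrated stress list, whose median was 0.081. Mt1, a metallothionein that binds zinc and copper, had the same split by genotype at 16.5, 79.6, 13.7 and 70.7 FPKM (2.54, SE 0.66, called). The muscle ubiquitin ligases Fbxo32 (147 FPKM in KO_AL, 64.5 in WT_DR) and Trim63 (315 and 143), both raised in wasting muscle, were not called. Of the 18 tested genes of that list 15 were higher in KO_AL and only Mt1 was called.

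The inducible heat shock protein 70 pair was higher in KO_AL. Hspa1a was at 8.31 FPKM in WT_AL, 16.3 in KO_AL, 3.17 in WT_DR and 6.07 in KO_DR (log2 difference 2.37, SE 0.57, called), and Hspa1b at 10.4, 24.7, 2.65 and 5.09 (3.22, SE 0.59, called). In both, AL groups exceeded DR groups and KO_AL was highest. These were the only calls among 15 heat shock genes tested, of which 11 were higher and 4 lower (median 0.33). The genes are near-identical copies, reads may be split between them, and they are best read as a pair. Their promoters are printed because the pair moved together, and those of Mt1 and of Per3, the clock gene described next, as examples chosen after the values were seen. All are RefSeq windows on GRCm38.p6 from 250 bases before to 50 after the start of the gene, 5′ to 3′ on its own strand, and capitals mark the motif searched on both strands. In Hspa1a (chr17:34972107-34972406, minus strand) and Hspa1b (chr17:34959189-34959488, minus strand) it is GAANNTTC, a core of the heat shock element, in Mt1 (chr8:94178839-94179138, plus strand) TGCNCNC, a loose form of the metal response element, and in Per3 (chr4:151044616-151044915, minus strand) TTATGTAA, the D-box bound by DBP and NFIL3.
Hspa1a: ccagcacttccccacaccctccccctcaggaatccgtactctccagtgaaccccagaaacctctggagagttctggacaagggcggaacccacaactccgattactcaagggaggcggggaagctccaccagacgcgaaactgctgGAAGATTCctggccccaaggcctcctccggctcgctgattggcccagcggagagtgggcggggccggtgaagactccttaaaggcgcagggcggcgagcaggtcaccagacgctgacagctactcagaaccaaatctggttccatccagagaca
Hspa1b: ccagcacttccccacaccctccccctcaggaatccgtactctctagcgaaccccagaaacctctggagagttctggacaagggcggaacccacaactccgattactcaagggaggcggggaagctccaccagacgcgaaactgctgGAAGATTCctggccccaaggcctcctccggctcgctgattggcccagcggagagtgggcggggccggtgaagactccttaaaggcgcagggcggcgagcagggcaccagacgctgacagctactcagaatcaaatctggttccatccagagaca
Mt1: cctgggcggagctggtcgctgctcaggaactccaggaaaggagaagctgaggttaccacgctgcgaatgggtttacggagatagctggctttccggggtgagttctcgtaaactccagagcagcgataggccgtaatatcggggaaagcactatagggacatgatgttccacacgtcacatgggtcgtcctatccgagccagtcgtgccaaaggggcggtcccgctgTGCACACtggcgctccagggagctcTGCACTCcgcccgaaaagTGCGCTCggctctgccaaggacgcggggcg
Per3: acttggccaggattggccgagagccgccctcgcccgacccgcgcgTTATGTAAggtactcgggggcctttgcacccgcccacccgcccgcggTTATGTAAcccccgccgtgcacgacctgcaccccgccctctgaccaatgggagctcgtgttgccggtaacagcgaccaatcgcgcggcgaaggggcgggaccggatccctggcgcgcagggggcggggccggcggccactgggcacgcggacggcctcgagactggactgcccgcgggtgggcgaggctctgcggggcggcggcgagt
The Hspa1a and Hspa1b windows are identical at 296 of 300 positions, and each holds GAANNTTC once, as do 7.86% of 32851 RefSeq promoter windows. The Mt1 window holds TGCNCNC 3 times, against 51% of windows with at least 1 match and 7.1% with at least 3. The Per3 window holds TTATGTAA 2 times, a motif found in 0.938% of windows. A match describes these letters and shows neither binding nor a cause of the values.

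Of the clock genes Per3 alone was called. Per3, a period gene of the negative limb of the clock, was at 7.30 FPKM in WT_AL, 4.31 in KO_AL (interval 1.73 to 6.90), 13.4 in WT_DR (interval 8.37 to 18.5) and 11 in KO_DR (log2 difference -1.64, SE 0.51, called). Dbp, an output factor whose transcript swings widely over the day, was at 26.7, 25.8, 125 and 122 FPKM, split by diet and not called (-2.28, SE 1.00). Arntl, which encodes the activator BMAL1, was at 9.08, 7.28, 3.05 and 2.30 FPKM (1.26, not called), the reverse order. Nfil3, the repressor that competes with DBP, was higher in both KO_AL (28.5) and KO_DR (26.2) than in WT_DR (9.76). Its log2 difference of 1.55 was not called. Its WT_AL value is left out of this text, so no split by genotype is described for it. Of 19 clock genes tested 8 were higher and 11 lower in KO_AL, with a median of -0.39, and Per3 was the only call, against 5 with the smaller SE. The call of Per3 was lost in several alternatives, among them no FPKM minimum, the liver share subtracted and the t distribution. The groups were fed on different schedules, and the hour at which each was culled is not given in the sources used here.

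A few called genes outside the lists, again chosen after their values were seen, were lowest in WT_DR. Fkbp5, a co-chaperone of steroid receptors, was at 31.2 FPKM in WT_AL, 29.9 in KO_AL (interval 17.6 to 42.3), 8.06 in WT_DR (interval 5.71 to 10.4) and 17.8 in KO_DR (log2 difference 1.89, SE 0.36, called). The zinc finger protein Zbtb16 was at 10.2, 10.9, 3.97 and 5.70 FPKM (1.46, called). Cebpd, a leucine zipper factor, was at 156, 157, 25.5 and 109 FPKM (2.62, SE 0.63, called). In all 3 genes the AL groups had values close to each other. Of 21 immediate early genes tested, 18 were higher in KO_AL at a median of 0.46, and none was called by the Wald test, against 6 with the smaller SE.

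**Figure D5:**
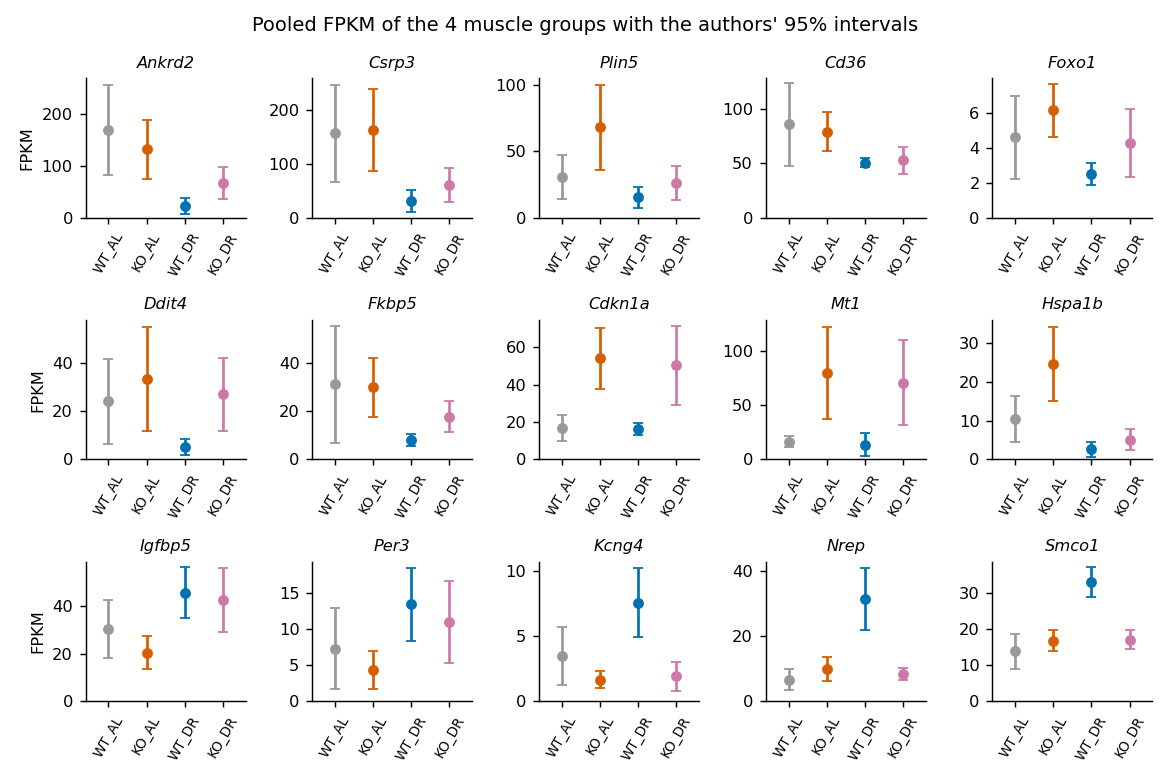
FPKM (linear y axis from 0, scaled for each gene) of 15 genes in muscle of WT_AL, KO_AL, WT_DR and KO_DR, with points for the authors' pooled values and bars for their 95% intervals. Ankrd2, Csrp3, Ddit4 and Fkbp5 are lowest in WT_DR, Cdkn1a and Mt1 are high in both KO groups, and Kcng4, Nrep and Smco1 are highest in WT_DR.

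Among the 39 entries lower in KO_AL that did not follow liver, Nrep, Kcng4 and Smco1 were highest in WT_DR. Nrep, a small protein of regenerating nerve and muscle, was at 6.63 FPKM in WT_AL, 9.92 in KO_AL (interval 6.26 to 13.6), 31.4 in WT_DR (interval 21.9 to 41.0) and 8.36 in KO_DR (log2 difference -1.66, SE 0.35, called). Kcng4, a modifying subunit of voltage-gated potassium channels, was at 3.44, 1.65, 7.57 and 1.91 FPKM (-2.20, SE 0.38, called). Smco1, chosen after its values were seen, was at 13.8, 16.8, 33.0 and 17.1 FPKM (-0.97, SE 0.15, called). In each, the interval of WT_DR lay wholly above that of KO_AL. Ppp1r14c, an inhibitor of protein phosphatase 1 also chosen afterwards, had a smaller difference at 18.1, 17.6, 30.6 and 20.7 FPKM (-0.80, SE 0.13). 2310065F04Rik, also among the 39, was at 15.95, 8.97, 35.7 and 13.4 FPKM (-1.99). Serpina1e, just outside the liver limit with 48.0% of its difference covered, was among the 39 as well, at a log2 difference of -7.17. Over the 39 entries, picked for their KO_AL and WT_DR values, WT_AL stood nearer to KO_AL for 29 and KO_DR for 25. The share over all entries tested was not counted, so these counts are a description. The log2 difference was under 1 in size for 20 of the 39.

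On the other side, the split by blood, immune, fat and nerve lists rests in part on lists made after the values were seen. Outside these lists, 76 single-gene entries of at least 300 bases were called higher in KO_AL. As a description, without the share over all entries tested, WT_AL lay nearer to KO_AL on the log2 scale for 36 and nearer to WT_DR for 40. KO_DR lay nearer to KO_AL for 49 of these entries. Muscle genes among them, chosen after their values were seen, were the LIM protein Fhl3 (157, 315, 127 and 124 FPKM in WT_AL, KO_AL, WT_DR and KO_DR), Smtnl1 (90.2, 123, 42.0 and 64.4), a smoothelin-like regulator of contraction, and Lrrc30 (89.1, 144, 34.8 and 75.4). Fhl3 was highest in KO_AL with the other 3 groups close together. Lrrc17 (12.9 FPKM in KO_AL, 1.09 in WT_DR), the developmental factor Tbx1 (11.7 and 1.26), the acetylcholine receptor subunit Chrna2 (3.85 and 0.78) and the neurotrophin Bdnf (1.54 and 0.42) had low values and were called.

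Matrix genes had 1 call in each direction. Sod3, the extracellular superoxide dismutase, was at 31.1 FPKM in WT_AL, 9.60 in KO_AL, 4.63 in WT_DR and 8.03 in KO_DR (log2 difference 1.05, SE 0.29, called). Lumican (Lum), a proteoglycan that orders collagen fibrils, was at 10.1, 8.95, 12.7 and 7.55 FPKM (-0.51, SE 0.15, called). WT_AL was the high group for Sod3, so KO_AL and WT_DR differ there while both lie below WT_AL. Of 29 matrix genes tested 23 were higher in KO_AL, at a median of 0.47. Lmod1, the smooth muscle leiomodin, was called higher (3.02, 7.26, 1.91 and 3.47 FPKM). Endothelial genes were all 10 on the side of KO_AL, at a median of 0.43, and none passed the Wald test with either SE. The tendon (3 of 7 tested genes higher), neuron (3 of 4), interferon (8 of 10) and sterol (10 of 17) lists held no call by this test, against 3, 0, 1 and 1 with the smaller SE, and the acute phase list (5 of 10 higher) held Lcn2 alone.

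The machinery of protein synthesis and respiration gave almost no calls. Of 62 cytosolic ribosomal protein genes tested, 38 were higher in KO_AL and 24 lower (median 0.11), and none was called, against 1 in each direction with the smaller SE. Rps26 stood at 123 FPKM in WT_AL, 314 in KO_AL, 193 in WT_DR and 429 in KO_DR, Rpl31 at 14.5, 35.2, 56.8 and 60.4, and Rpl37a at 26.9, 85.2, 57.0 and 97.0. In each, both KO_AL and WT_DR lay above WT_AL. Many ribosomal protein genes have processed copies elsewhere in the genome, so these values are uncertain. Of 68 mitochondrial ribosomal proteins, 31 were higher and 37 lower, and Mrpl57 alone was called (15.7 FPKM in KO_AL, 8.70 in WT_DR, log2 difference 0.85). Neither the 43 complex I genes (median -0.012), the 47 tested genes of complexes II to V (median 0.051), the 6 mitochondrially encoded messengers (median -0.24) nor the 35 proteasome subunits (median -0.087) held a call. With the smaller SE they held 1, 2, 0 and 2.

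The remaining large differences were in short RNAs, for which this assay is weak: libraries were selected for poly-A tails, short reads were dropped, and FPKM inflates a locus about as long as a read. Of 17 mitochondrial transfer RNAs tested, a set listed after the values were seen, 15 were higher in KO_AL and 7 were called, with mt-Te at 3667 FPKM in WT_AL, 18490 in KO_AL, 1305 in WT_DR and 11270 in KO_DR. The Y RNA Rny1 (494 FPKM in KO_AL, 40.1 in WT_DR) and the predicted genes Gm24950 (42.1 and 1.89), Gm24601 (108 and 6.51) and Gm23971 (62.3 and 3.92) complete the 12 largest called higher values of single-gene entries with at least 1 FPKM in both groups. Among the 12 largest called lower values under the same limit, with the liver-following entries set apart, were the small nucleolar RNA Snord118 (3.45 and 51.7 FPKM), Gm3625 (18.7 and 102), Gm4479 (1.70 and 9.95), Gm22579 (3.69 and 16.1), Gm26384 (7.03 and 23.6), CAAA01116243.1 (2.57 and 8.41), Mir7091 (33.3 and 101) and Gm24300 (8.36 and 24.8). A further 196 entries of at least 1 FPKM in KO_AL were listed at 0 in WT_DR, led by Snord55 (651), mt-Ts1 (545), Gm24245 (234) and Scarna17 (116). The reverse held for 123, led by Gm26202 (130), Gm23301 (110), Gm24455 (79.4) and Mir677 (70.8). An entry listed at 0 can be a failed estimate and was not tested.

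Of the 22 genes that the study names and the table holds, 17 were higher in KO_AL than in WT_DR, and 5 were called: Cdkn1a, Hba-a2, Hbb-bs, Hbb-bt and Lmod1. The study chose these genes on these samples, so their count is not independent evidence of a direction. The secreted Wnt antagonist Sfrp5 was at 59.0 FPKM in WT_AL, 9.21 in KO_AL, 3.66 in WT_DR and 11.7 in KO_DR and was not called. Matrix and adhesion genes Prelp (23.2 FPKM in KO_AL, 11.9 in WT_DR), Thbs2 (2.19 and 1.39) and Nedd9 (2.83 and 1.16) were not called either, and in each WT_AL was highest.

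The same comparison in inguinal white adipose tissue (WAT), with 3 KO_AL and 2 WT_DR libraries, was set against the muscle result to see where the tissues differ. The SE of the difference treats the tissues as independent, and mice shared between them were not modelled. The difference of the log2 differences was called for 87 of 13160 entries, 0.661%. Fkbp5 had a log2 difference of 1.89 in both tissues, and the 95% interval of the difference between tissues ran from -0.99 to 1.00. For Ddit4 (2.73 in muscle, 2.28 in WAT) it ran from -1.65 to 2.56, for Cdkn1a (1.72 and 1.22) from -0.92 to 1.93, and for Hspa1b (3.22 and 3.07) from -1.85 to 2.14. These intervals leave room for sizeable differences in either direction. Foxo1 stood at 1.30 in muscle and 0.13 in WAT, with an interval from -0.32 to 2.65 that still includes 0. Pdp2 differed beyond its error, at 0.53 in muscle and -0.54 in WAT (interval 0.69 to 1.46). The lipid droplet gene Plin1 (2.42 in muscle, -1.24 in WAT) and the brown fat genes Ucp1 (8.18 and -0.26) and Cidea (5.26 and -0.87) differed as well. In WAT itself Ucp1 was at 9.87 FPKM in KO_AL and 11.8 in WT_DR, both below the 66.9 of KO_AL muscle, values for which no test between tissues was run.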

How the data were processed

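Poly-A RNA of liver, skeletal muscle, brain and inguinal WAT was sequenced as single-end reads on an Ion Proton. Per the study's methods, the authors trimmed reads with cutadapt 1.5 and sickle, aligned them to GRCm38 with BBmap, and ran Cuffdiff 2.2.1 with correction for multiply mapped reads, geometric normalisation and dispersion per condition. The deposited values are FPKM, pooled by the authors over the libraries of each group, with a 95% interval that was checked to be the FPKM ± 2 SD with the lower bound kept at 0 or above. There are no counts or values per library, so the depth is unknown, precision is that of the authors' interval, and batches could not be examined. Samples were grouped by their labels. Whether strand was used in counting is not given in the sources used here.

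An entry was tested if its status was OK and its value above 0 in each group, and if 1 group reached 1 FPKM. The SD was taken as the distance from the FPKM to the upper bound divided by 2, and the SE of a log2 ratio came from the delta method. A two-sided Wald test with a normal reference was adjusted by Benjamini-Hochberg over all entries tested, with an FDR of 10%. The liver share was the median over 24 liver genes of the muscle excess in WT_DR divided by the WT_DR liver FPKM. The test was checked on simulated data, but the outcome is not given here and the calls do not rest on it. Python 3.11.15, numpy 2.4.6, pandas 2.3.3, scipy 1.17.1 and matplotlib 3.10.9 were used.

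The comparison, its 36 gene lists and the genes were chosen with earlier results of these data known. The rule for names took Irs1, genes the study names, the 12 largest called differences in each direction with at least 1 FPKM in both groups, the 6 largest that follow liver, called and abundant list members, and up to 4 entries per group listed at 0 in the other. Of the list members it allows, those that bear on a result are printed. Other list members that were not called are given as examples and, like the genes so marked in the text, were picked with their values known. Alternatives were a t distribution, an FDR of 5%, non-overlap of the intervals, SDs divided by the square root of the number of libraries, pseudocounts of 0.1 and 1, no FPKM minimum or one of 5, a difference of at least 2-fold, centring on the median, leaving out joined entries or loci under 300 bases, the liver share subtracted, and a stricter liver limit. Promoter windows are RefSeq's. Brain was not analysed here, and a few genes are left out of the text.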

Additional observations from a re-analysis of the deposited data

Results flagged for a closer look

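The log2 difference between KO_AL and WT_DR was not the same in muscle and in white adipose tissue for 16 of the 118 named genes tested in both, by a two-sided Wald test of the difference between tissues, adjusted over 13160 entries at an FDR of 10%. Over all 13160 entries the same test called 87, or 0.661%. Many of the named genes were picked for their muscle values, which favours a difference between tissues, so the 16 are a description. Values below are the muscle log2 difference minus that of white adipose tissue, so a positive value means a larger excess in KO_AL muscle. The liver genes were Apoa1 (-7.45), Alb (-6.26), Apoa2 (-6.54) and Ttr (-6.05). Serpina1e (-11.1), just outside the liver limit in muscle, is listed with them. The test treats the tissues as independent, although they came from the same groups of mice. In WAT these stood between 0.081 for Alb and 3.96 for Serpina1e, whereas in muscle all were lower in KO_AL.

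Fat genes were Ucp1 (8.44), Cidea (6.13) and Plin1 (3.66), which were higher in KO_AL muscle and had WAT values below 0. Blood genes were Hba-a2 (5.05) and S100a9 (5.47). Ldhb, a lactate dehydrogenase subunit (3.34), Pdp2, the pyruvate dehydrogenase phosphatase (1.07), and Lrrc17 (4.10) were the other protein-coding genes of this direction. The small nucleolar RNA Snord118 (-3.36), the histone gene Hist1h4i (-0.769) and the predicted gene Gm20721 (-0.455) differed in the other direction. The SEs of Hist1h4i and Gm20721 in muscle were 0.0076 and 0.0023, far below the median of 0.76.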

How the results depend on the processing

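The count of entries higher in KO_AL (140) stayed between 114 and 171 under the other alternatives, but was 3 with the t distribution, 644 with the smaller SE, and 41 when each SD was raised to the local median SD at its FPKM level, an alternative chosen after the data were seen. The count lower (127) was 3, 491 and 48 under the same settings, 191 with a pseudocount of 1 and 42 after the liver share was subtracted. The 39 lower entries set apart from liver were 3, 272 and 4 under these settings, 59 with intervals that do not overlap, 19 at a difference of at least 2-fold, and 68 where the liver share had to cover at least 75% of the difference. The 16 named genes that differ from WAT were 2 with the t distribution and 35 with the smaller SE. With the liver share subtracted, Alb (7.09), Apoa2 (7.40), Ttr (5.28) and Igf1 (1.07) turned from lower to higher in KO_AL, the first 3 with WT_DR muscle left at the floor of 0.1 FPKM. Irs1 was not called under any alternative run (0.17 to 0.22).

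Of the 142 named genes tested, 85 were called. With the SD raised, 32 of them still were, among them Ankrd2, Csrp3, Plin5, Ddit4, Hspa1b, Mt1 and Cebpd, but not Foxo1, Cdkn1a, Fkbp5, Cd36, Pdp2, Nrep, Kcng4 or Smco1. With the t distribution 6 were called, all of them small RNAs, histone or predicted genes. Ldhb, Ppp1r3c, Per3 and Retn also lost their calls with no FPKM minimum. No paired analysis was possible because the columns are pooled per group and carry no replicate number, and no fit without 1 library was made for the same reason.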
